A study of Mus musculus with 6 samples.

Results

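Gluconeogenesis, the making of new glucose, runs in only a few organs, and the proximal tubule of the kidney cortex is one of them. Pyruvate carboxylase (Pcx) and phosphoenolpyruvate carboxykinase (Pck1 in the cytosol, Pck2 in mitochondria) turn pyruvate into phosphoenolpyruvate, fructose bisphosphatase (Fbp1) works further along the path, and glucose-6-phosphatase (G6pc), fed by the transporter of the endoplasmic reticulum Slc37a4, releases free glucose. The tubule also draws carbon from glutamine, through glutamate dehydrogenase (Glud1), and from fructose, through ketohexokinase (Khk). Pck1 and G6pc are the steps best known for control of their transcription, raised by cyclic AMP and glucocorticoids and lowered by insulin, and renal Pck1 also rises in acidosis.

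These 8 genes were taken by exact match of the gene name in the array files and were represented by 13 probes of 56605 distinct transcript probes. Pck1, G6pc, Fbp1 and Pcx had 1 probe each, Pck2, Slc37a4 and Khk had 2, and Glud1 had 3. The arrays held RNA from the renal cortex of male C57BL/6 mice, with 3 C3aR-/- control arrays, from mice lacking the receptor of the complement fragment C3a, and 3 WT control arrays. Per the labels, both groups ate chow with 10% of its calories as fat from 8 weeks of age. After 4 weeks they were given vehicle on 3 days, where streptozotocin would make mice diabetic, and they were killed 20 weeks later. Diabetic mice were not analysed here. How the deletion was made and whether the mice had fasted at death are unstated in the labels used here. They also do not say that each array was a separate animal, so p-values measure only the spread between these samples, which may be technical.

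Of the 59305 transcript spots on an array, 56.5% to 59.3% gave a signal well above background, and none was saturated. Levels below are log2 processed signal relative to the 75th percentile of the array. A level depends on the probe as well as on the RNA, so no gene is ranked against another by it. The C3ar1 probe was well above background on 1 of 6 arrays, at -5.60, -5.47 and -6.05 in C3aR-/- and -5.03, -6.17 and -5.60 in WT replicates 1 to 3, so it gave no check of the genotype. Each genotype was on a slide and a scan of its own, so slide and genotype cannot be told apart. C3aR-/- replicate 1 differed from both other C3aR-/- arrays, at 37.2 on the second principal component against -27.0 and -25.4, and the calls without it are given below. All 8 proximal tubule markers (Slc34a1, Slc5a2, Slc5a12, Slc22a6, Slc7a13, Lrp2, Cubn and Slc27a2) were well above background on all 6 arrays, as were all 13 probes of the pathway, none of whose spots was flagged as an outlier.

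The first set of probes shown here belongs to the genes that passed the test. Each is the 60-base oligonucleotide of the array, 5′ to 3′, and lies on the plus strand of mouse build mm9, at chr2:172984307-172984366 for Pck1 (NM_011044) and chr11:101238947-101239006 for G6pc (NM_008061). The files name the transcript and not the exon.
Pck1: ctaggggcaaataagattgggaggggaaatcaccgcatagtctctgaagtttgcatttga
G6pc: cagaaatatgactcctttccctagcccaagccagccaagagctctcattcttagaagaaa

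Pck1 and G6pc rose in C3aR-/- cortex, and they were the only members that passed the test. The Pck1 signal was 79588, 93649 and 104051 intensity units in C3aR-/- replicates 1 to 3, against 54955, 49874 and 56532 in WT replicates 1 to 3. On the scaled log2 axis these were levels of 6.80, 6.82 and 7.15 in C3aR-/- and 6.33, 6.24 and 6.37 in WT. The genotypes did not overlap, the lowest C3aR-/- array lay 0.44 above the highest WT array, and C3aR-/- replicate 3 was the highest of all. Pck1 rose 1.53-fold (log2 change 0.61, SE 0.11, 95% interval 0.34 to 0.88, limma adjusted p = 0.0269), with mean levels of 6.92 ± 0.19 in C3aR-/- and 6.31 ± 0.07 in WT (SD, n = 3 each).

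G6pc, at the other end of the path, had log2 levels of 6.24, 6.01 and 6.38 in C3aR-/- replicates 1 to 3, against 5.63, 5.71 and 5.70 in WT. Here too every C3aR-/- array lay above every WT array, and replicate 3 was again the highest, while replicate 2 lay nearest to WT. The gene rose 1.44-fold (log2 change 0.53, SE 0.11, 95% interval 0.27 to 0.79, limma adjusted p = 0.0335), with mean levels of 6.21 ± 0.19 in C3aR-/- and 5.68 ± 0.05 in WT (SD, n = 3 each). Both calls were lost in some settings although the direction held in every one. Without one array, the Pck1 call was kept when C3aR-/- replicate 1 was left out, and the adjusted p was 0.0590 and 0.0562 without C3aR-/- replicates 2 and 3 and 0.0728, 0.0797 and 0.0619 without WT replicates 1, 2 and 3. The G6pc call was kept without C3aR-/- replicate 2, and the adjusted p was 0.0763 and 0.0893 without C3aR-/- replicates 1 and 3 and 0.0919, 0.0852 and 0.0783 without WT replicates 1, 2 and 3.

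Over all 13 probes, 2 were higher, 0 lower and 11 did not pass (limma; 10 higher and 0 lower at an unadjusted p under 0.05). Of the 30930 probes tested on these arrays, 6.18% were called higher and 5.49% lower. An unadjusted p under 0.05 was common among them. The middle Glud1 probe, at an unadjusted p of 0.0482 (limma), ranked 9701 among the 30930 with both directions together. Counts at an unadjusted p, here and below, are to be read against that. The log2 change was positive for 12 of the 13 probes, as it was for 54.7% of all probes, and the median change was 0.26 against 0.03 over all probes. The genotypes did not overlap for 11 of the 13, all higher in C3aR-/-, where 22.8% of all probes lay apart in that direction and 39.6% in either. By the brightest probe of each gene, all 8 members had a positive change and none of the 8 overlapped, with 2 called and a median of 0.28, against a median of 0.02 over 20418 genes. A fit with 1 probe a gene also called Pck1 and G6pc alone among the 8, and called 7.1% of all genes higher. The brightest probe of every member except Pck2 was among the 3093 brightest probes kept. Of those 3093, 6.05% were called higher and 2.39% lower, with a median change of 0.06, so very bright probes leaned higher in C3aR-/-.

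**Figure D1:**
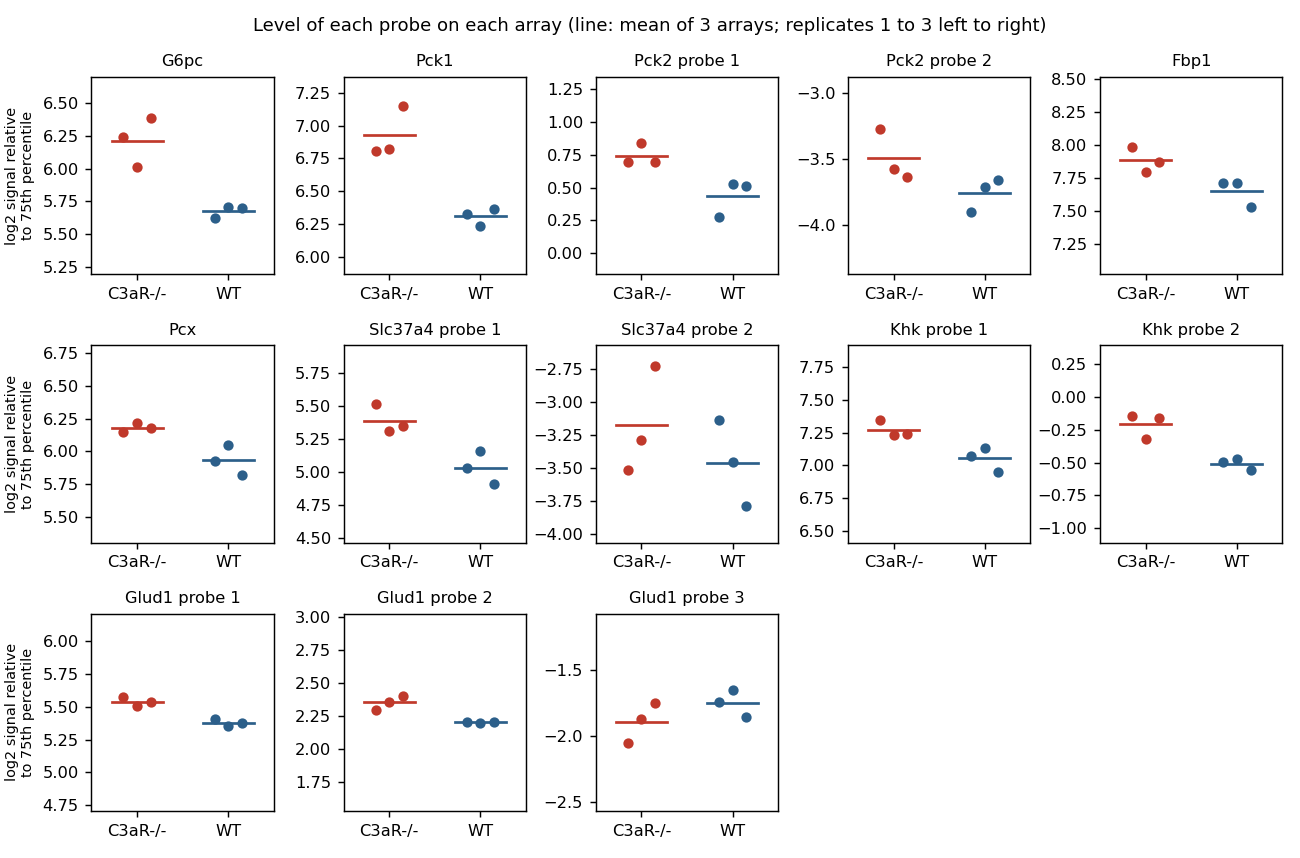
Log2 level of each of the 13 probes relative to the 75th percentile of the array, in 3 C3aR-/- arrays (left, red) and 3 WT arrays (right, blue), with a line at each mean and the same span of the axis in every panel. Every C3aR-/- point lies above every WT point except for the second Slc37a4 probe and the third Glud1 probe.

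Of the other carboxykinase and the enzyme before it, neither passed. Pck2, the mitochondrial form, had log2 levels of 0.69, 0.84 and 0.70 in C3aR-/- and 0.27, 0.53 and 0.51 in WT at its brighter probe, without overlap (log2 change 0.31, SE 0.10, limma adjusted p = 0.0872). Its other probe, 857 bases further along chromosome 14, gave a change of 0.26 (SE 0.12, limma adjusted p = 0.196), and the closest arrays of the genotypes differed there by 0.02. Pcx, the mitochondrial enzyme that makes oxaloacetate from pyruvate, had levels of 6.15, 6.22 and 6.18 in C3aR-/- and 5.93, 6.05 and 5.82 in WT. All 3 C3aR-/- values of Pcx lay within 0.07 of each other and above the WT values (log2 change 0.25, SE 0.08, 95% interval 0.06 to 0.44, limma adjusted p = 0.0911).

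Fbp1, which removes a phosphate from fructose bisphosphate, had levels of 7.98, 7.80 and 7.87 in C3aR-/- and 7.71, 7.71 and 7.53 in WT. The genotypes lay apart by 0.08, less than the SD of either (0.09 in C3aR-/- and 0.11 in WT), and the change of 0.23 did not pass (SE 0.09, 95% interval 0.02 to 0.44, limma adjusted p = 0.130). Under quantile normalisation the Fbp1 change was 0.03, and in the deposited log2 table it was 0.11.

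Slc37a4 carries glucose 6-phosphate to the active site of G6pc, so the pair work as one system. Its brighter probe had levels of 5.51, 5.31 and 5.35 in C3aR-/- and 5.03, 5.16 and 4.91 in WT, again without overlap. The change of 0.36 (SE 0.10, 95% interval 0.13 to 0.59) did not pass (limma adjusted p = 0.0619), but it passed with normexp background correction (adjusted p = 0.0253), under median scaling (adjusted p = 0.0428) and with array weights (adjusted p = 0.0464). The other probe, designed on the cDNA AK040077 and lying 5242 bases upstream, was far dimmer and had the widest spread of the 13. It ran from -3.52 to -2.72 in C3aR-/- and from -3.79 to -3.14 in WT, and its change of 0.28 (SE 0.25) had an interval of -0.33 to 0.89.

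Ketohexokinase, the entry of fructose into metabolism, was read by a probe for the transcript NM_008439 and by one further upstream for the predicted transcript XM_006503749. The upstream Khk probe and the brighter Slc37a4 probe are shown because they came nearest to passing without doing so, and the downstream Khk probe for comparison. Capitals mark AATAAA, the letters of the polyadenylation signal. They lie on the plus strand of mm9 at chr5:31233555-31233614, chr5:31229105-31229164 and chr9:44210978-44211037. The letters AATAAA were found in 4 of the 13 probes, on the probe strand only, and in 9.77% of the 56605 probes of the array. The other carriers were the dimmer Slc37a4 probe and the Pcx probe.
Khk, downstream: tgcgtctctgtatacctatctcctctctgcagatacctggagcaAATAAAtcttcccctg
Khk, upstream: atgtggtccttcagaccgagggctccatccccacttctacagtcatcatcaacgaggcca
Slc37a4, brighter: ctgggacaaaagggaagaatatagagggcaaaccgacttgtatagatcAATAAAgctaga

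On its downstream probe, Khk had levels of 7.35, 7.23 and 7.24 in C3aR-/- and 7.07, 7.13 and 6.95 in WT, a change of 0.22 (SE 0.08, 95% interval 0.03 to 0.41, limma adjusted p = 0.113). The upstream probe, 4450 bases before it, had levels of -0.14, -0.32 and -0.16 in C3aR-/- and -0.50, -0.47 and -0.56 in WT, a change of 0.30 (SE 0.08, 95% interval 0.12 to 0.48, limma adjusted p = 0.0547). Neither probe overlapped between genotypes, and within arrays the change of the downstream probe less that of the upstream one was -0.08, with overlap (exact permutation test, two-sided, p = 0.2, smallest possible 0.1). The upstream probe passed in 4 other settings, with adjusted p values of 0.0397 to 0.0489, while the downstream probe passed in none and its change was 0.08 under quantile normalisation.

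Glud1 gave the smallest positive changes and the only negative one. Its probes are shown because their changes differed in sign. They lie on the plus strand of chromosome 14 in mm9, at chr14:35157919-35157978 and chr14:35151947-35152006 for those of NM_008133 and at chr14:35142426-35142485, 15493 bases upstream of the first, for that of ENSMUST00000162912.
Glud1, first: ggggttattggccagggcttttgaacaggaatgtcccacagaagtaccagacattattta
Glud1, middle: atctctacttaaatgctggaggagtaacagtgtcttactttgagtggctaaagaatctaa
Glud1, upstream: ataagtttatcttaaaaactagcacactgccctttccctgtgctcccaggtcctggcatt

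The first Glud1 probe had levels of 5.58, 5.50 and 5.53 in C3aR-/- and 5.40, 5.36 and 5.37 in WT, a change of 0.16 (SE 0.06, limma adjusted p = 0.131). The middle probe had levels of 2.30, 2.36 and 2.41 in C3aR-/- and 2.21, 2.20 and 2.20 in WT, a change of 0.15 (SE 0.06, limma adjusted p = 0.154). These changes differed by 0.01, and neither overlapped between genotypes. On the upstream probe the levels were -2.05, -1.88 and -1.75 in C3aR-/- and -1.74, -1.65 and -1.86 in WT, which overlapped, and the change was -0.14 (SE 0.10, 95% interval -0.39 to 0.10, limma adjusted p = 0.372). Within arrays, the first probe changed by 0.30 more than the upstream one, without overlap (exact permutation test, two-sided, p = 0.1, the smallest possible; 0.4 when adjusted over 12 pairs). The mean of the 3 probes changed by 0.06 (limma adjusted p = 0.587).

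**Figure D2:**
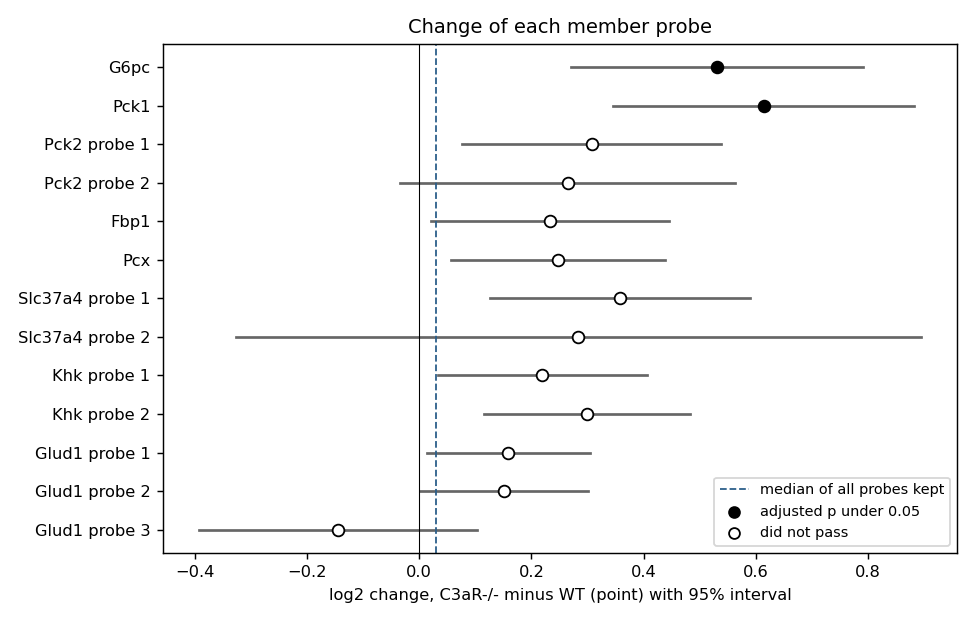
Log2 change of each of the 13 probes, C3aR-/- minus WT, with its 95% interval from limma; filled points had an adjusted p under 0.05 and the dashed line is the median of all probes, 0.03. Pck1 at 0.61 and G6pc at 0.53 are the filled points, and the third Glud1 probe lies left of 0.

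The members also differed in which C3aR-/- array was highest. Of the 13 probes, 6 were highest on replicate 1, 2 on replicate 2 and 5 on replicate 3. Pck1 and G6pc peaked on replicate 3, whereas Fbp1, the brighter Slc37a4 probe, both Khk probes and the first Glud1 probe peaked on replicate 1, the array that differed most from the others of its genotype. In WT, 7 probes were lowest on replicate 3, among them Fbp1, Pcx and both probes of Khk and of Slc37a4. Neither count was taken over all probes of the arrays, so both only describe these 13. The Fbp1 level less that of the downstream Khk probe on the same array was 0.64, 0.57 and 0.63 in C3aR-/- and 0.64, 0.58 and 0.58 in WT. This is a difference of 0.01 between genotypes (exact permutation test, two-sided, p = 0.9, smallest possible 0.1). How closely other bright probes ran together was not examined.

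Differences taken within an array do not depend on the constant by which each array was scaled. Pck1 changed by 0.08 more than G6pc, with overlap between genotypes (exact permutation test, two-sided, p = 0.4). It changed by 0.45 more than Glud1 and 0.37 more than Pcx, in both cases without overlap and at the smallest possible p of 0.1 (exact permutation test). The excess over Fbp1 was 0.38 and that over Pck2 was 0.31, both with overlap (exact permutation test, p = 0.2 each), and G6pc changed by 0.17 more than Slc37a4 (exact permutation test, p = 0.3). Adjusted over the 12 pairs, every p of these was 0.4 or higher, so with 3 arrays in each group no pair could be shown to differ.

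Proximal tubule markers were also at higher levels in C3aR-/- cortex. The log2 change was above 0 for all 8, their median was 0.19 by the brightest probe of each (a second Slc7a13 probe was at -0.30), and 2 of the 8 rose (Slc5a2 and Slc5a12; 5.97% of 20418 genes were called higher by their brightest probe). Their mean level was 6.35, 6.29 and 6.34 in C3aR-/- and 6.12, 6.11 and 6.01 in WT, a difference of 0.25 without overlap. In bulk cortex, more cells of a type and more RNA per cell cannot be told apart. The range of the summed level of the 8 markers was 9.68 to 9.74 in C3aR-/- and 9.47 to 9.57 in WT.

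Each member was then set against that marker mean on the same array, a measure added after the values were seen. Pck1 stood 0.45, 0.53 and 0.80 above it in C3aR-/- and 0.21, 0.13 and 0.35 above it in WT, a difference of 0.36 without overlap. For G6pc the difference was 0.28, also without overlap. Fbp1 and the downstream Khk probe differed by -0.02 and -0.03, with overlap, Pcx by less than 0.01 in size, and the brighter probes of Slc37a4 and Pck2 by 0.11 and 0.06, with overlap. Glud1, by its first probe, lay lower relative to the markers in every C3aR-/- array, by a difference of -0.09. The smallest possible p of 0.1 was reached by Pck1, G6pc and all 3 Glud1 probes (exact permutation test, two-sided; 0.26 when adjusted over 13 probes). On the plain levels 39.6% of all probes lay apart in either direction, and the share relative to the markers was not computed. With Slc5a12, which also supplies lactate for glucose synthesis, left out of the markers, the differences were 0.43 for Pck1, 0.35 for G6pc, 0.05 for Fbp1 and -0.02 for Glud1.

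Markers of other cells moved in different directions. Of the 3 thick limb markers and 3 podocyte markers none passed (limma; 2 and 0 higher at an unadjusted p under 0.05, and none lower), with medians of 0.24 and 0.28. Aqp2 and Aqp3 of the collecting duct rose by 0.88 and 0.40 while Slc4a1 fell by 0.51, and in the distal convoluted tubule Pvalb fell by 0.47 and Slc12a3 was at 0.23. Among 3 endothelial genes Kdr fell by 0.53, Pecam1 rose by 0.51 and 1 did not pass. Of the 3 leukocyte markers Cd68 fell by 0.58 and 2 did not pass, 1 of them with a positive change. Jchain and Mzb1, of plasma cells, fell by 2.65 and 0.69. Of 4 genes highly expressed in liver, another organ of gluconeogenesis, Alb, Apoa2 and Serpina1a changed by -0.12, 0.21 and -0.14 without passing and Cps1 was not well above background on any array; the same held for all 3 adipocyte markers. The part of these shifts in the results for Pck1 and G6pc was not tested, and the marker differences above do not measure it.

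Around the members, 61 further genes of the same pathways were described by their brightest probe. Of these, 9 rose, 1 fell and 51 did not pass (limma), with a median change of 0.11. By brightest probe, 5.97% of all genes were called higher and 6.38% lower. The number that rose was 3, 3 and 1 without C3aR-/- replicates 1, 2 and 3 and 1, 1 and 3 without WT replicates 1, 2 and 3.

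Among 14 other enzymes of glucose synthesis and of the steps it shares with glycolysis, 2 passed, both higher, and none was lower (limma; 5 higher and 1 lower at an unadjusted p under 0.05). Mdh1, the cytosolic malate dehydrogenase, passed by its brightest probe at 0.27 (adjusted p = 0.0469), but its probes disagreed, the others giving -0.06 and 0.04. Gapdh was at 0.31 and Fbp2, the muscle form of the bisphosphatase, at 0.37, and neither passed. Eno1 was at 0.23 and Got1 at -0.15, but the probes of each disagreed in sign. The other Got1 probes had positive changes, and the other Eno1 probes differed in sign from each other. G6pc3, the widely expressed phosphatase, was at -0.01.

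Of 17 genes that supply substrates, 3 rose and 1 fell. Slc5a12, a lactate transporter of the tubule's apical membrane, rose by 0.73 (SE 0.08, adjusted p = 0.0103), and Ldha, a lactate dehydrogenase, by 0.37 (SE 0.08, adjusted p = 0.0418; other probe 0.30). Slc25a10, the mitochondrial dicarboxylate carrier, rose by 0.49 (SE 0.09). Gpt2, the mitochondrial alanine aminotransferase, fell by 0.50 (SE 0.11, adjusted p = 0.0418), and a second probe gave -0.78. Hlcs, which attaches biotin to Pcx and other carboxylases, was at -0.39, and Slc5a8, a further lactate transporter, at 0.38, without passing.

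In the fructose and polyol pathway 3 of 12 genes rose and none fell (limma; 5 higher and 0 lower at an unadjusted p under 0.05). Slc2a5, the fructose transporter, rose by 0.74 (SE 0.17, adjusted p = 0.0432). Slc2a8, a glucose and fructose transporter, rose by 0.47 (SE 0.07, adjusted p = 0.0179). Tkfc, which phosphorylates a product of fructose breakdown, was at 0.21 with its other probe at -0.66. Hk1 was at 0.55 with other probes at -0.02 and -0.31, and Sord, which makes fructose from sorbitol, at 0.11.

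Of 19 regulators, 2 rose and none fell (limma; 5 higher and 0 lower at an unadjusted p under 0.05). Cebpa, a transcription factor of gluconeogenic genes in liver, rose by 0.51 (SE 0.11, adjusted p = 0.0356), and Insr, the insulin receptor, by 0.35 (SE 0.08, adjusted p = 0.0441; other probe 0.47). Irs2, an adaptor of the insulin receptor, had the highest positive change of the list at 1.38, but with an SE of 0.37 it did not pass (adjusted p = 0.0612). The coactivator Ppargc1a was at 0.27 and the transcription factor Foxo1 at 0.29, with a second Foxo1 probe at 0.05, and neither passed (adjusted p = 0.0654 and 0.0558). Nr4a1, an immediate early gene, was at -1.01 with an SE of 0.93, and this rested on WT replicate 3. Its levels were -0.15, 0.41 and 3.52 in WT and 0.10, 0.40 and 0.26 in C3aR-/- replicates 1 to 3.

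**Figure D3:**
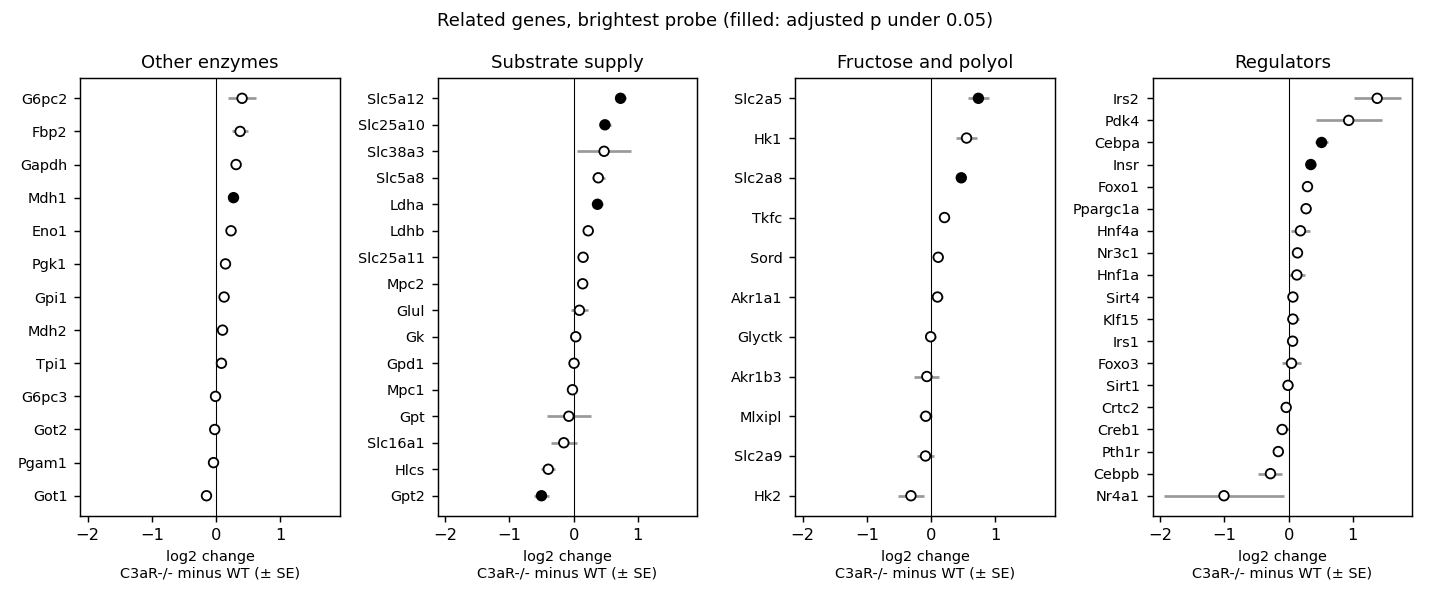
Log2 change, C3aR-/- minus WT, of the brightest probe of the genes shown from 4 related lists, with bars of 1 SE; filled points had an adjusted p under 0.05. Most points lie within 0.5 of 0, the filled ones lie to the right except Gpt2, and Irs2, Pdk4 and Nr4a1 have the widest bars among the regulators.

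The profile of Pck1 over the 6 arrays, centred on its own mean, was close to those of Ppara, Atg14, Fam124a and Osbpl6, which were among the 5 nearest out of 13771 named genes well above background on all arrays. The root mean square distance was 0.04 for Ppara, the nuclear receptor that senses fatty acids, 0.07 for Atg14, which acts in autophagy, 0.07 for Fam124a, and 0.08 for Osbpl6, of the oxysterol binding protein family. Ppara stood at 0.15, 0.16 and 0.54 in C3aR-/- and -0.22, -0.37 and -0.27 in WT relative to its mean, with its highest value on C3aR-/- replicate 3 as for Pck1. These genes were picked for their likeness, which includes the difference between genotypes, so their changes of 0.57 to 0.69 are a description.

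**Figure D4:**
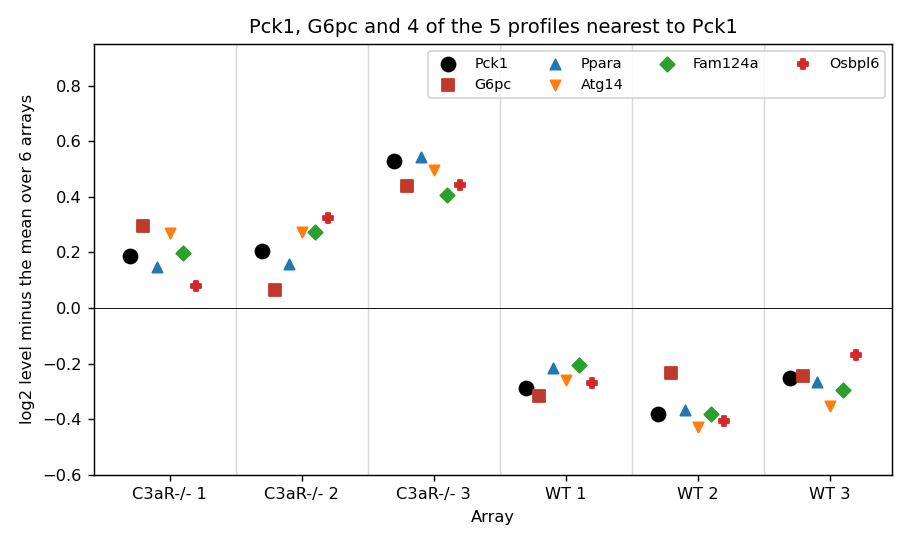
Log2 level minus the mean over the 6 arrays for Pck1, G6pc and 4 of the 5 genes with the nearest profile to Pck1, by array, C3aR-/- arrays first. All points lie above 0 in C3aR-/- and below 0 in WT, and each gene is highest on C3aR-/- replicate 3.

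The promoters of the genes that rose are shown because both are textbook targets of cyclic AMP and insulin signalling. All 8 members had RefSeq promoter windows on build GRCm38.p6, 11 windows in all, each from 250 bases before to 50 after a transcript start. They were searched on both strands for TGACG, the core of the cyclic AMP response element, AGGTCA, the half-site of many nuclear receptors, and GTAAACA, the FOXO core. Both windows below are on the plus strand, at chr2:173152823-173153122 for Pck1 and chr11:101367466-101367765 for G6pc, with matches in capitals.
Pck1: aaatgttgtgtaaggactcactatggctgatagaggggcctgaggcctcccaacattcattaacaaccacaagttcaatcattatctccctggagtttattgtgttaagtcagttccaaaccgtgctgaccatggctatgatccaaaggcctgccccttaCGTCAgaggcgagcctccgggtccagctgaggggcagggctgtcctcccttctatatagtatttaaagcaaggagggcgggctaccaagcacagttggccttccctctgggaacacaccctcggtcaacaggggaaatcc
G6pc: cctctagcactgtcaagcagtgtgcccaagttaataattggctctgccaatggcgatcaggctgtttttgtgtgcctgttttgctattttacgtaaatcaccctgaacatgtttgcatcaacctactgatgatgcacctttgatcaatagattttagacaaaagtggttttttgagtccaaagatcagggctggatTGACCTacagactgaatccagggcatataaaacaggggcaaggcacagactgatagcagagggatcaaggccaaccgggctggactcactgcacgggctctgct

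In the Pck1 window TGACG was read on the opposite strand, as CGTCA, with its first base at -90 from the start. TGACG was also in windows of Khk and Slc37a4, so in 4 of the 11 member windows, with 2 overlapping windows of Slc37a4 among them, and 20.8% of all 32851 promoter windows held it. AGGTCA was in windows of G6pc, as TGACCT at -54, Pcx and Slc37a4, in 3 of the 11 member windows, against 16.3% of all windows. GTAAACA was in no member window and in 3.65% of all. Only these exact letters were searched, so other forms of the sites were not counted. A match is a description of the letters in a window and not a bound site.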

How the data were processed

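RNA, 0.2 µg a sample, was labelled with Cy3 for 1-colour Agilent arrays, per the labels' protocols. Per the file headers and the submitters' processing notes, Agilent Feature Extraction 10.7.1.1 gave each spot a background-subtracted intensity (the processed signal), a mean and a background intensity, and flags. The log2 table the authors deposited had nearly equal sorted values in every column and served as an alternative; how it was centred is unstated. Probe coordinates are those of the files, on mm9.

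Levels are log2 of the processed signal divided by its 75th percentile among the transcript spots of that array. Control and outlier spots were left out and spots of a probe averaged. A probe was kept if all 3 arrays of either genotype had it well above background, 30930 of 56605. Genotypes were compared per probe with limma 3.58.1 in R 4.3.3 (lmFit and eBayes, two-sided, Benjamini-Hochberg adjustment over all kept probes, threshold 0.05), after a test on simulated data. Every adjusted p is limma's unless an exact test is named. Symbols of related genes came from a RefSeq table of GRCm38.p6.

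The members, the 4 related and 10 marker lists, the alternatives and the naming rule were chosen with earlier results of these data known. Named were every member by every probe, up to 6 genes of each related list by smallest p with a few others chosen after their values were seen, all markers with a call, and the 5 profiles nearest to Pck1, leaving out predicted genes and clones. A few genes counted in these lists are not reported here by name. Alternatives changed the background correction, normalisation, probe filter, probe choice, block and array weights or left out an array; members relative to proximal tubule markers were added after the data were seen. The number of arrays limits the precision.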

Additional observations from a re-analysis of the deposited data

How the results depend on the processing

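Each of the 13 probes kept its direction in the alternatives that fitted it by itself, 14 to 16 of the 16. The brightest-probe fit held 8 of them, and the mean over probes replaced the separate probes of 4 genes, with Glud1 at 0.06 where its upstream probe was at -0.14. The 2 member probes called higher became 4 under median scaling, which also moved the share of all called probes that were higher to 67.6% against 53.0%, and 4 with array weights. None was called without a filter on dim probes (9 higher and 0 lower at an unadjusted p under 0.05), where 56499 probes were tested, or with the replicate block (6 higher and 0 lower at an unadjusted p under 0.05). Leaving out 1 array gave 0 to 1. Deviations of arrays that share a replicate number correlated at 0.04, 0.01 and -0.06, so the numbers were not taken to pair the samples. Of all probes, 3612 were called as reported, 927 without the filter, 594 with the block and 649 to 1894 without 1 array. Of the 61 related genes, 9 rose as reported, 15 under median scaling, 5 in the deposited table, 1 without the filter, 1 with the block and 1 to 3 without 1 array. The 1 that fell became 0 under median scaling, without the filter and with the block, and 0 to 1 without 1 array. The cause of these shifts was not tested, except that fewer arrays or more probes entered some fits. A slide block was not run because each slide held 1 genotype.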
